A study of Rattus norvegicus with 6 samples.

Results

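Adipoq, Cfd and Pparg are 3 genes by which fat cells are commonly recognised, and their levels were followed here through each library of rat penile cavernous tissue. They were picked by Ensembl identifier (ENSRNOG00000001821 for Adipoq, ENSRNOG00000033564 for Cfd and ENSRNOG00000008839 for Pparg) as 3 of the 23091 genes in the files. The choice was made with the difference between hypertensive and normal rats already known, so that difference is described below. Where results of a test over all genes are given for the 3, they are not evidence about them. The RNA-seq compared spontaneously hypertensive rats (SHR group, 3 libraries) with Wistar-Kyoto controls, which have normal blood pressure (Norm group, 3 libraries). The paper used rats of 10 weeks in both groups and does not give the age at collection. It names no drug treatment for this comparison, but describes tissue collection after pressure recording under pentobarbital with stimulation of the cavernous nerve. SHR is an inbred strain that becomes hypertensive without treatment, so that strain and blood pressure cannot be told apart. The methods speak of the outer urethra membrane in 2 ways, once as the source of the RNA and once as removed before extraction.

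Adipoq encodes adiponectin, a hormone that fat cells secrete and that acts on its receptors in muscle, liver and vessel wall. Cfd encodes complement factor D, also called adipsin, the serine protease that cleaves factor B and so starts the alternative complement pathway, and fat tissue is its main source. Pparg encodes PPAR-γ, the nuclear receptor that pairs with RXR and drives fat cell differentiation. Pparg is also expressed at a lower level outside fat, for example in macrophages and in vascular cells, and in fat cells it is a regulator of both other genes. Pparg RNA is made from separate promoters, of which the downstream one is used mainly in fat cells.

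The promoters are shown because the 3 genes were all higher in the SHR group and because Pparg has 2 starts in the RefSeq table, which lie 57714 bases apart. Each line gives the 250 bases before a start, 5′ to 3′ on the strand of the gene, from RefSeq on build GRCr8. Capitals mark every match on either strand to 5 motifs, namely AGGTCA (a site of a single nuclear receptor), AGGTCA repeated directly after 1 base (the repeat that PPAR and RXR bind), TTGCNNAA (a core of C/EBP sites), TATAAA and CCAAT.
Adipoq, chr11:91240170-91240419, minus strand: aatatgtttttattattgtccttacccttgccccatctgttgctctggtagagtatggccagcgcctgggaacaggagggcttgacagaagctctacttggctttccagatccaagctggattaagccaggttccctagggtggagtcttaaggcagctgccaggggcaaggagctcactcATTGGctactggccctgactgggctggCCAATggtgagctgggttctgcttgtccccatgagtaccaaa
Cfd, chr7:10465497-10465746, minus strand: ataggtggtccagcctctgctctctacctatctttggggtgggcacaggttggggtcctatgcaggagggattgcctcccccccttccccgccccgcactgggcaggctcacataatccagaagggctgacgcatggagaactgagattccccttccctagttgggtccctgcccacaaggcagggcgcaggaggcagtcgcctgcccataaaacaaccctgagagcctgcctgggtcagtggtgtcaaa
Pparg, upstream start, chr4:150096808-150097057, plus strand: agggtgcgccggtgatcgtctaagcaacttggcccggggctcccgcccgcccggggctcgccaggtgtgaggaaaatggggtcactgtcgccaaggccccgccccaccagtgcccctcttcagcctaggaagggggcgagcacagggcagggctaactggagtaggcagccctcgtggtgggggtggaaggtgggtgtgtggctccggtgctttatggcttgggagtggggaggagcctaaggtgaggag
Pparg, downstream start, chr4:150154522-150154771, plus strand: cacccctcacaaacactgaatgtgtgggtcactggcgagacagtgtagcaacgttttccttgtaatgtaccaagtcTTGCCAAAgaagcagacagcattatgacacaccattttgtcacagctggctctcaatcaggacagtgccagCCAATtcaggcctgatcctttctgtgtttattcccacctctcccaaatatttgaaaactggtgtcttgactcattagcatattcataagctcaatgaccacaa
Adipoq held 2 matches to CCAAT, 1 on each strand. The downstream start of Pparg held 1 match to CCAAT and 1 to TTGCNNAA. The windows of Cfd and of the upstream start of Pparg held none of the 5 motifs, and none of the 4 windows held AGGTCA, its direct repeat or TATAAA. Among the 33469 windows of the table, CCAAT was in 34.0%, TTGCNNAA in 9.22%, AGGTCA in 14.1%, TATAAA in 12.9% and the direct repeat in 0.0508%. These matches describe the letters of the windows, and no factor binding was measured.

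The files list identifiers only, and the names of the 3 genes rest on the pairing given when they were chosen. The one check the files allow is the gene length implied by the count, the FPKM (fragments scaled to gene length and library size) and the library total. The implied lengths were between 1278 and 1487 bases for Adipoq, 1016 bases for Cfd and between 1906 and 2008 bases for Pparg. Each lay below the span of the gene of that name in RefSeq, so that no identifier was dropped. The spans are 13721 bases for Adipoq, 1724 bases for Cfd and 125362 bases for Pparg. As the spans of Adipoq and Pparg are far longer than the implied lengths, most genes would pass under those names. The check is therefore weak and does not establish the names. Other genes are not paired with names, and markers of smooth muscle, endothelium and other cell types were therefore not analysed here. The libraries held between 16608927 and 20017845 counts, in which 3 counts correspond to at most 0.181 CPM (counts scaled to library size), well below all values reported for the 3 genes.

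Adipoq was low in the Norm group and among the most abundant genes of the SHR group. Its counts were 30, 42 and 152 in Norm replicates 1, 2 and 3, and 13470, 5608 and 16906 in SHR replicates 1, 2 and 3. After TMM scaling, which sets a factor for each library, these were 1.90, 2.52 and 7.16 CPM in the Norm libraries and 781, 298 and 980 CPM in the SHR libraries. The groups lay far apart, with the lowest SHR library 41.6-fold above the highest Norm library. The Norm group averaged 3.86 ± 2.87 CPM and the SHR group 686 ± 351 CPM (mean ± SD, n = 3). The log2 fold change (log2FC, SHR over Norm) fitted by edgeR was 7.45 with a standard error of 0.67, the rank 12 of all 13299 genes that passed the filter on low counts. Norm replicate 3 stood apart from the other Norm libraries, and without it the log2FC was 8.27. By FPKM, which can be compared between genes, Adipoq ranked 10790, 10585 and 8094 among the genes of Norm replicates 1, 2 and 3, and 119, 302 and 108 in SHR replicates 1, 2 and 3. In SHR replicate 3 it took 0.0995% of all counts.

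Cfd followed the same direction from a higher start. Its counts were 146, 197 and 203 in Norm replicates 1, 2 and 3, and 4649, 2243 and 5821 in SHR replicates 1, 2 and 3. This corresponds to 9.24, 11.8 and 9.56 CPM in the Norm libraries and to 269, 119 and 338 CPM in the SHR libraries. The Norm libraries were close to each other, the SHR libraries were spread over a 2.84-fold range, and the groups did not overlap. The Norm group averaged 10.2 ± 1.41 CPM and the SHR group 242 ± 112 CPM (mean ± SD, n = 3), with a log2FC of 4.57 and a standard error of 0.38. The lowest SHR library was 10.1-fold above the highest Norm library.

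Pparg, the regulator, differed much less than the secreted products. Its counts were 312, 410 and 502 in Norm replicates 1, 2 and 3, and 958, 711 and 753 in SHR replicates 1, 2 and 3. The Norm libraries stood at 19.7, 24.6 and 23.6 CPM and the SHR libraries at 55.5, 37.7 and 43.7 CPM. The groups did not overlap, but the lowest SHR library was only 1.53-fold above the highest Norm library. The Norm group averaged 22.7 ± 2.57 CPM and the SHR group 45.6 ± 9.07 CPM (mean ± SD, n = 3), with a log2FC of 1.01 and a standard error of 0.17. In bulk tissue, a change in the number of cells of a type and a change in RNA per cell cannot be told apart, which holds for all 3 genes.

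**Figure D1:**
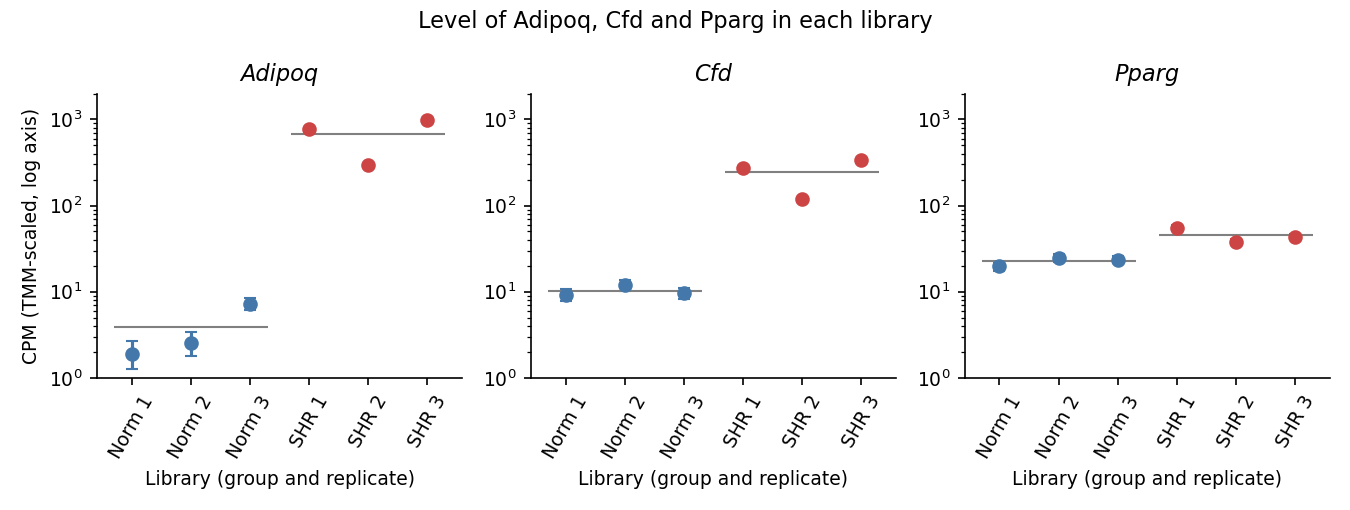
TMM-scaled CPM of Adipoq, Cfd and Pparg (log axis) in each of the 3 Norm (blue) and 3 SHR (red) libraries, with 95% Poisson intervals that cover counting error only and grey lines at the group means. Every SHR library lies above every Norm library for each gene, by the widest margin for Adipoq and the narrowest for Pparg.

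All 3 genes passed an adjusted p under 0.05 with a log2FC over 1 in edgeR's quasi-likelihood test, against 1.65% of the genes tested that did so with higher levels in the SHR group. The SHR libraries lay entirely above the Norm libraries for all 3 genes, against 13.3% of the genes tested. As the genes were chosen with this contrast known, neither these counts nor the alternative fits given below are evidence about them. Pparg stood at the edge of the fold threshold. It had the smallest log2FC of the 219 genes called higher, and the nearest gene below the threshold with an adjusted p under 0.05 had a log2FC of 0.996. Adipoq and Cfd stayed past both thresholds in all 13 alternative fits and Pparg in 8 of them. Pparg missed the fold threshold alone without Norm replicate 1 (log2FC 0.92) and with the replicate number as a block (0.997). It missed only the adjusted p of edgeR's quasi-likelihood test without Norm replicate 2 (log2FC 1.07, adjusted p 0.058) or Norm replicate 3 (1.04 and 0.061). Without SHR replicate 1 it missed both (0.85 and 0.057 by the same test).

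The relative level of the 3 genes to each other also differed between the groups. In FPKM, Pparg stood at 9.11, 11.6 and 12.5 in Norm replicates 1, 2 and 3 and Cfd at 8.43, 11.0 and 9.98. Pparg was thus the higher of these in each Norm library, by a small margin, with group means of 11.1 ± 1.75 and 9.80 ± 1.29 FPKM (SD, n = 3). Adipoq was the lowest of the 3 in every Norm library, at 1.38, 1.68 and 5.34 FPKM. In the SHR libraries the order was turned, with Adipoq at 545, 204 and 669 FPKM, Cfd at 276, 120 and 337 FPKM and Pparg at 30.3, 20.1 and 23.2 FPKM in replicates 1, 2 and 3. Adipoq was thus above Cfd, and Cfd above Pparg, in each SHR library.

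The ratio of Adipoq to Cfd was nearly the same in the 3 SHR libraries. It was 1.98, 1.71 and 1.98 in SHR replicates 1, 2 and 3, a 1.16-fold range, although Adipoq alone covered a 3.27-fold range in FPKM. In the Norm libraries the same ratio was 0.163, 0.152 and 0.535, so that Norm replicate 3 differed from the others through Adipoq and not through Cfd. The ratio of Adipoq to Pparg was 18.0, 10.2 and 28.8 in the SHR libraries and 0.151, 0.145 and 0.428 in the Norm libraries. The ratio of Cfd to Pparg was 9.10, 5.96 and 14.5 in the SHR libraries and 0.925, 0.950 and 0.799 in the Norm libraries. Pparg therefore did not keep a fixed ratio to either secreted product among the SHR libraries.

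**Figure D2:**
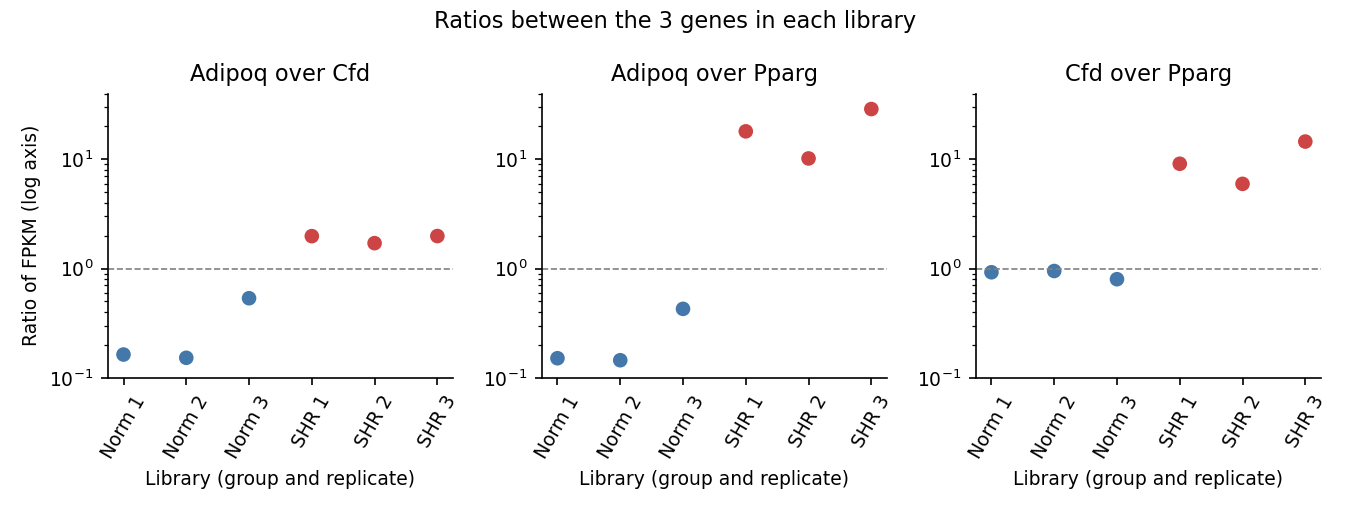
Ratio of FPKM between pairs of the 3 genes (log axis, dashed line at equal levels) in each Norm (blue) and SHR (red) library. Adipoq over Cfd stays between 1.71 and 1.98 in the SHR libraries, while both ratios to Pparg vary more than 2.4-fold among them.

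Whether the 3 SHR libraries rank alike for all 3 genes was examined next. Genes whose RNA came mainly from a tissue component of varying amount, such as fat, would share an order under 1 condition. Their RNA per amount of that component would have to be the same in each sample, which was not measured. For a gene also expressed outside that component, as Pparg is outside fat, the order need not be shared. SHR replicate 2 was the lowest of the SHR libraries for all 3 genes. Adipoq and Cfd were highest in SHR replicate 3, followed by replicate 1. Pparg was highest in SHR replicate 1, followed by replicate 3. The 95% Poisson interval of Pparg, which covers counting error only, was 52.1 to 59.2 CPM in replicate 1, 40.6 to 46.9 CPM in replicate 3 and 35.0 to 40.6 CPM in replicate 2. Replicate 1 was thus above the others beyond counting error, and the intervals of replicates 2 and 3 met. The order was the same for each gene in CPM with and without TMM factors, in CPM with DESeq2's size factors and in FPKM. In the Norm libraries the 3 genes did not all share an order either, as Adipoq was highest in replicate 3 and Cfd and Pparg in replicate 2. Cfd and Pparg had the same Norm order, and replicate 1 was the lowest for all 3 genes. The intervals of Norm replicates 2 and 3 overlapped for Cfd (10.2 to 13.6 and 8.29 to 11.0 CPM). They also overlapped for Pparg (22.3 to 27.1 and 21.6 to 25.8 CPM).

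The order of Adipoq and Cfd, with replicate 3 highest and replicate 2 lowest, was also the most frequent order in the other genes. It was found in 22.0% of the 13299 genes tested and in 53.0% of the 219 genes called higher in the SHR group. The order of Pparg was found in 14.5% and 16.0%. SHR replicate 2 was the lowest in 36.6% of the genes tested and in 68.9% of the genes called higher. The shared order of Adipoq and Cfd is therefore common among the genes called higher, and is not particular to them.

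**Figure D3:**
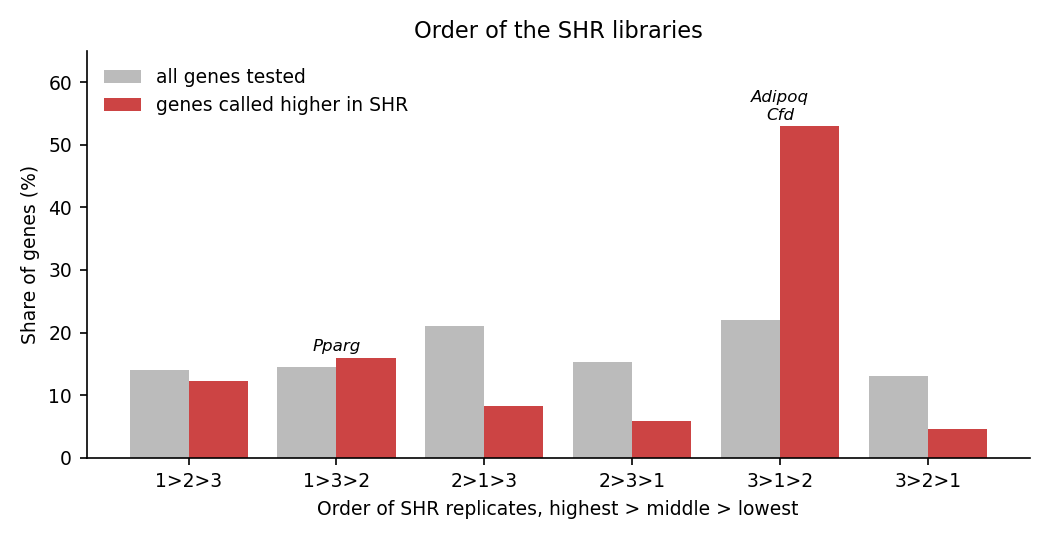
Share of genes (%) in each of the 6 possible orders of the SHR replicates, written from highest to lowest, for all genes tested (grey, n = 13299) and for genes called higher in the SHR group (red, n = 219). The order of Adipoq and Cfd holds 53.0% of the genes called higher, and that of Pparg 16.0%.

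The size of the differences between SHR libraries set Pparg apart from Adipoq and Cfd as well. On the scale of log2 CPM with 0.1 added, SHR replicate 3 exceeded replicate 2 by 1.72 for Adipoq, 1.50 for Cfd and 0.21 for Pparg. The median of the genes called higher was 0.52 (quartiles -0.03 and 1.47). SHR replicate 1 exceeded replicate 2 by 1.39 for Adipoq, 1.18 for Cfd and 0.56 for Pparg, with a median of 0.46 (quartiles 0.08 and 0.93) in the genes called higher. Over all genes tested both medians were 0.00, and scaling between libraries is meant to bring such medians near 0. The root mean square difference between Adipoq and Cfd over the 3 SHR libraries, each centred on its own mean, was 0.10 on the log2 scale, and 9 of the 218 other genes called higher were nearer to Adipoq than Cfd was. For Adipoq and Pparg it was 0.62, and 120 of the 218 were nearer.

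**Figure D4:**
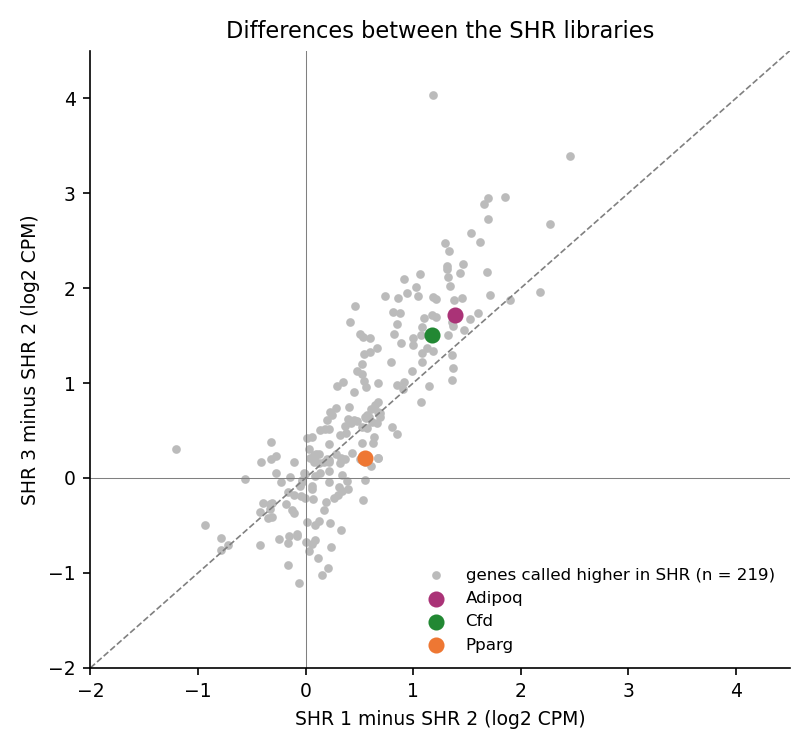
Difference of log2 CPM between SHR replicates 1 and 2 (horizontal) and between SHR replicates 3 and 2 (vertical) for the 219 genes called higher in the SHR group, with Adipoq, Cfd and Pparg in colour and a dashed line of equal differences. Adipoq and Cfd lie together above the line at 1.72 and 1.50 on the vertical axis, and Pparg lies below the line at 0.21.

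The level above the Norm mean, here called the excess, gives the same comparison after the level in normal tissue is subtracted. It takes that level to be the same within each SHR library, which was not measured. For Adipoq this excess was 777, 294 and 976 CPM in SHR replicates 1, 2 and 3, and for Cfd it was 259, 109 and 327 CPM. Relative to SHR replicate 3, the excess in replicate 1 was 79.6% for Adipoq and 79.2% for Cfd, and in replicate 2 it was 30.1% and 33.2%. For Pparg the excess was 32.9, 15.1 and 21.0 CPM, which was 156.5% in replicate 1 and 71.7% in replicate 2. The Norm mean subtracted for Pparg was 22.7 CPM, of similar size to its excess, so these shares depend on the subtraction. In the 216 other genes called higher, the median was 89.7% in replicate 1 (quartiles 64.1% and 118.7%) and 59.5% in replicate 2 (quartiles 30.1% and 103.5%). By this measure Adipoq and Cfd scaled together across the SHR libraries and Pparg did not scale with them. Whether a varying amount of fat tissue had a part in these differences was not tested.

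The length implied by count and FPKM, used above as a weak check of the names, was also compared between the libraries. It comes from the same files as the levels and is given as a description. Programs that estimate transcripts take the length of a gene as a mean over its transcripts, weighted by their estimated shares, so that this length can differ between libraries. For Pparg it was 2008 bases in all 3 Norm libraries, and 1906, 1919 and 1909 bases in SHR replicates 1, 2 and 3. The SHR mean differed from the Norm mean by -4.82%, and the rounding of the deposited values left at most 3 bases on either side. Such a separation towards shorter lengths was found in 2.73% of the 12439 genes that had 10 or more counts in each library, and 94 genes were shortened by more than Pparg. For Adipoq the implied length was 1278, 1420 and 1422 bases in the Norm libraries and 1487 bases in each SHR library, a separation towards longer lengths that was found in 2.21% of the genes. In Norm replicate 1, with 30 counts, rounding allowed 1256 to 1300 bases. For Cfd it was 1016 bases in all 6 libraries, and 47.1% of the genes likewise had 1 length in all libraries within rounding. The transcripts behind these lengths were not analysed here, and with 3 libraries per group an exact permutation test could not give a p below 0.1. The fold between the group means was 2.01 in CPM and 2.22 in FPKM for Pparg, 178 and 169 for Adipoq, and 23.7 and 24.9 for Cfd. CPM carries the TMM factors and FPKM does not, so that the scales differ in library scaling as well as in length, and for Cfd, with 1 length throughout, in library scaling alone.

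**Figure D5:**
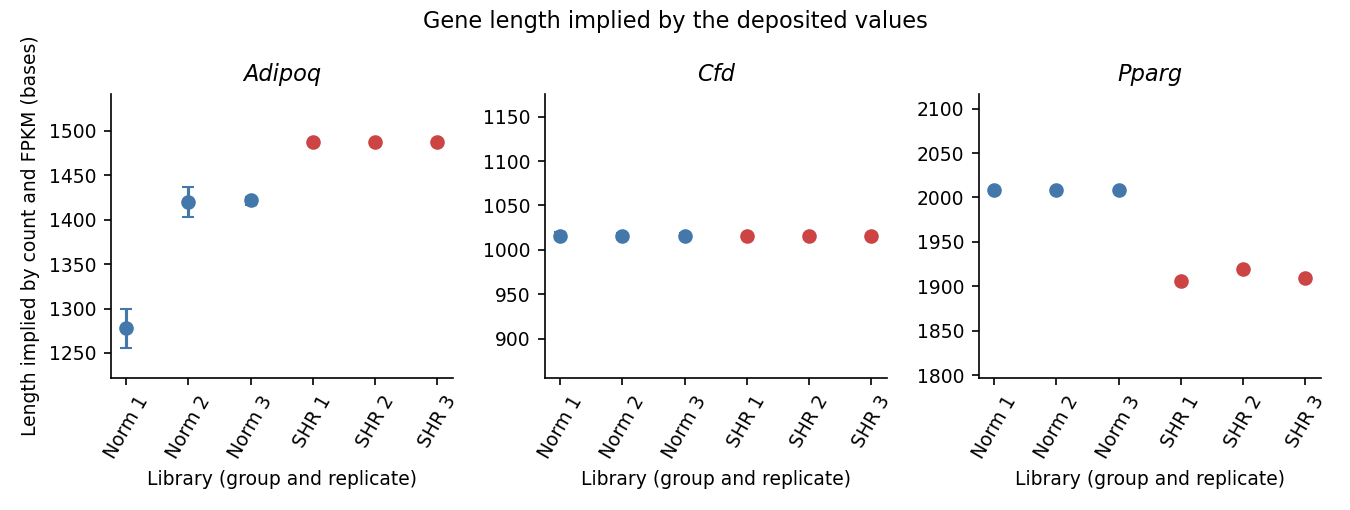
Gene length in bases implied by the deposited count, FPKM and library total for Adipoq, Cfd and Pparg in each Norm (blue) and SHR (red) library, with bars for the range that rounding allows. The axes do not start at 0 and each spans the same number of bases. Pparg stands at 2008 bases in the Norm libraries and between 1906 and 1919 bases in the SHR libraries, Adipoq at 1487 bases in the SHR libraries and Cfd at 1016 bases.

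The genes whose levels over all 6 libraries were most like those of the 3 genes were sought by the root mean square difference of log2 CPM with 0.1 added, each gene centred on its own mean. The 10 genes nearest to the mean profile of the 3 differed from it by 0.26 to 0.40. By the way they were picked they share its direction, and 6 of them had a mean of only 0.781 to 1.35 CPM, where the profile rests on few counts and on the value added. The nearest gene to Adipoq was ENSRNOG00000009153, at a difference of 0.28, with a log2FC of 7.48 and a mean of 103 CPM. The nearest to Cfd was ENSRNOG00000039079, at 0.24, with a log2FC of 7.95 and a mean of only 0.868 CPM, to which the same limit applies. The 3 genes nearest to Pparg differed from it by 0.11 each and had a log2FC of 0.99 to 1.06. The one ranked 3 had a mean of only 0.572 CPM, so that this limit applies to it too. Adipoq, Cfd and Pparg were not each other's nearest by this measure, which also weighs the size of the change. Among the 13298 other genes tested, Cfd ranked 25 and Pparg 586 in nearness to Adipoq. Adipoq ranked 339 and Pparg 501 in nearness to Cfd. Seen from Pparg, Cfd ranked 13187 and Adipoq 13284, close to the farthest.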

How the data were processed

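RNA-seq of penile cavernous tissue from 3 Norm and 3 SHR libraries was analysed. Per the labels, the submitters' processing notes name fastp 0.18.0, Bowtie2 2.2.8, HISAT2 2.1.0, StringTie 1.3 and RSEM; their roles, the genome build and the annotation are not given in the sources used here. The authors deposited whole-number counts per gene, which may be rounded estimates (31 values were 0 beside an FPKM above 0), and FPKM values scaled by the authors for gene length and library total. Counts of 13299 genes that passed filterByExpr went into edgeR 4.0.16 (R 4.3.3; quasi-likelihood test after TMM, Benjamini-Hochberg adjustment). Calls needed a log2FC beyond 1 in either direction together with an adjusted p under 0.05. Alternatives used DESeq2 1.42.0, limma 3.58.1, other filters and scaling, a replicate block and leaving out each library. Standard errors came from the F statistic. The test, tried on simulated data for this comparison in 13171 genes, called 99 of 100 genes changed by 4-fold, 98 of 100 changed by 8-fold and 13 unchanged ones. The changed genes were drawn from those with a mean above 1 CPM, and the simulated spread was the one edgeR had fitted. These counts therefore do not cover genes of lower level or a spread of another form. Descriptions used Python 3.11.15. Replicate number only names a library, and nothing in the labels says that libraries came from separate rats, so p-values measure the spread between these libraries.

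The 3 genes and all lists were chosen with earlier results of these data known. The genes named were the 3 chosen, and the genes nearest to them, of which 2 are printed by identifier. Lists of adipocyte, other cell type and pathway genes had been set by symbol, but no table pairs identifiers with symbols and they were not used here. RefSeq promoters (GRCr8) were matched by symbol for all 3 genes.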

Additional observations from a re-analysis of the deposited data

How the results depend on the processing

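The log2FC of Adipoq, Cfd and Pparg kept its direction and moved by less than the spread between libraries under every alternative. It was between 7.10 and 8.27 for Adipoq, 4.25 and 4.90 for Cfd and 0.85 and 1.13 for Pparg with 1 library left out, and 6.94, 4.38 and 1.07 by limma on log2(FPKM + 1). The number of genes called, against which the 3 were read, was 219 with higher and 126 with lower levels in SHR rats. It was 414 and 195 with DESeq2, 64 lower by limma on log2(FPKM + 1) and 233 lower with the adjusted p alone. With 1 library left out, from 102 (without Norm replicate 3) to 357 (without SHR replicate 2) were higher and from 50 (without SHR replicate 1) to 129 lower. The cause was not tested, except that the adjusted p alone drops the fold threshold by construction.

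A block for replicate number gave 155 higher and 93 lower genes and a log2FC of Pparg of 0.997. Deviations from the group means of libraries with the same number correlated at -0.03, -0.11 and -0.13 over genes. These values gave no sign of pairing by number, but libraries with different numbers were not compared, so they cannot settle it. The count of other adipocyte genes called was not run under any setting, because identifiers are not paired with symbols. Counts of 30 and 42 limit the precision of Adipoq in Norm replicates 1 and 2.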
